A study of Mus musculus with 11 samples.

Results

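Peroxisomes are small organelles that shorten fatty acids too long or too branched for mitochondria, and the proximal tubule of the kidney is rich in them. Their enzymes are made in the cytosol and carried in by receptors encoded by Pex genes. Straight chains pass through an oxidase, a bifunctional enzyme and a thiolase, whereas methyl-branched chains such as phytanic acid first lose a carbon by alpha-oxidation and then use their own oxidase, racemase and thiolase. The genes described here are 43 that serve peroxisome assembly (13 Pex genes) or peroxisomal lipid handling (30 genes), named as a list and matched to array probe sets that carry exactly 1 gene symbol. Of the 43, 42 were measured, out of 22180 genes on the array, and where a gene had several probe sets the one with the highest mean over the 11 arrays was kept. Acot8 was left out, since its probe set also carries the symbol of another gene.

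The samples were S3 proximal tubules, the straight part of the proximal tubule, from kidneys of mice of the 129/SvEv strain. The tested genotype was THP -/-, which lacks Tamm-Horsfall protein (uromodulin, encoded by Umod), with 5 arrays, and the control was WT of the same strain, with 6 arrays. Batch 1 held 3 THP -/- and 5 WT arrays, and batch 2 held 2 THP -/- arrays and 1 WT array. Age, sex and the construction of the deletion are not given in the sources used here. Nor do the labels tie arrays to mice, and p-values therefore refer to variation among arrays, which may be technical.

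Signals are on a log2 scale, the median array signal lay from 3.85 to 4.01, and precision is limited by how many arrays there are. Umod averaged 4.49 ± 0.582 in THP -/- arrays (SD, n = 5) and 5.80 ± 0.579 in WT arrays (SD, n = 6), with THP -/- array 5 at the lowest WT value of 5.27 and the other 4 below every WT array. Its limma adjusted p was 0.281. The S3 marker Slc7a13, an amino acid transporter, averaged 10.68 in THP -/- arrays and 10.23 in WT arrays. Of 10 markers of the earlier S1 and S2 segments, 8 were above the mean signal of the median gene. Of 8 thick ascending limb markers, 7 were above it. So were 8 of 10 distal and collecting duct markers and 5 of 6 endothelial markers. Fewer were above it for stromal (3 of 5), thin limb (2 of 4), podocyte (1 of 3) and immune (1 of 5) markers. By construction 11090 of all 22180 genes are above it. Umod, the gene of the deletion, is among the 8 thick ascending limb markers and was above the array median on 10 of 11 arrays. A marker above the median gene thus does not show that a cell type was present. Because these were bulk samples, fewer cells of a type and less RNA per cell cannot be told apart. Over all 41345 probe sets, limma with batch as a term placed 0 (0%) past an adjusted p of 0.05 with Benjamini-Hochberg, so no gene below is called changed, and the values are descriptions of size and spread.

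Sequence upstream of the start is shown for 4 members whose window meets no annotated gene. Acox2 is the oxidase with the smallest p, and Crot the enzyme that attaches shortened chains to carnitine. Ehhadh is the bifunctional enzyme of the straight-chain route, and Pex14 the Pex gene with the smallest p. Each sequence is the 250 bases before the most upstream RefSeq start (GRCm38.p6), written 5′ to 3′ on the gene's strand. GGGCGG boxes and CCAAT boxes on either strand are in capitals. Acox2 lies at chr14:8259020-8259269 (minus strand), Crot at chr5:8997147-8997396 (minus strand), Ehhadh at chr16:21787835-21788084 (minus strand) and Pex14 at chr4:149099844-149100093 (minus strand).
Acox2: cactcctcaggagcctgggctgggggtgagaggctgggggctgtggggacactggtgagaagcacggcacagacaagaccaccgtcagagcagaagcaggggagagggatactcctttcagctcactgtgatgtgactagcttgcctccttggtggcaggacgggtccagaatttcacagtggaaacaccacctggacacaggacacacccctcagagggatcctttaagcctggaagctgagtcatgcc
Crot: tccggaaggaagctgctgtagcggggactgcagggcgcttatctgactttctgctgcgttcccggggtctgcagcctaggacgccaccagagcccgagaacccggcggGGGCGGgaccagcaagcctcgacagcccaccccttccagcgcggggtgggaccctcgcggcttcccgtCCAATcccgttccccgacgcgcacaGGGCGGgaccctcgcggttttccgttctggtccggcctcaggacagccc
Ehhadh: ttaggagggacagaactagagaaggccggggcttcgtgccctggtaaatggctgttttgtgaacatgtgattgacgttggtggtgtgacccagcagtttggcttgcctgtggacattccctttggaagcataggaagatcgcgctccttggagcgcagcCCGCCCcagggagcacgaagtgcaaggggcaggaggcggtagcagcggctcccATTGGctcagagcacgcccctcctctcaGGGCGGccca
Pex14: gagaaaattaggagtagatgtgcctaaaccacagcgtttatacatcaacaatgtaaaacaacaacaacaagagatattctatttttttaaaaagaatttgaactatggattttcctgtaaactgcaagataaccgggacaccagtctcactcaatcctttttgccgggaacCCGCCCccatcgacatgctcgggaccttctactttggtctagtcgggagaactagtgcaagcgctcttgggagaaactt

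The Acox2 window shown held neither box, whereas Crot had 2 GGGCGG and 1 CCAAT, Ehhadh 2 GGGCGG and 1 CCAAT, and Pex14 1 GGGCGG. Acox2 has 2 RefSeq starts, and the window of the other, not shown, had 1 CCAAT. Over the 45 windows of the 36 members with an entry, 26 had GGGCGG (57.8%) and 19 had CCAAT (42.2%), against 32.7% and 33.8% of all 32851 RefSeq windows of this length. AGGTCA, the half-site read by PPAR and other nuclear receptors, was in 7 of the 45 (15.6%) and in 14% of all windows, and in none of the 4 shown. These motifs were searched on both strands, and a match of letters is not a binding site.

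Most members had higher mean signal in THP -/- tubules, and the 12 with the smallest p all lay outside the Pex group. Of the 42 members, 33 had a positive log2 difference (78.6%, against 53.4% of all genes), with a median of 0.17 against 0.01 over all genes. An unadjusted limma p under 0.05 was reached by 12 members, all higher in THP -/- tubules (28.6%, against 3.64% of all genes for that direction and 5.64% for both). The 12 were Acox2, Acot3, Amacr, Hacl1, Crot, Mpv17l, Abcd3, Nudt19, Ech1, Nudt12, Acot12 and Ehhadh, and their limma adjusted p over all probe sets ran from 0.543 to 0.803. In 3 of these, Acox2, Amacr and Acot3, every THP -/- array lay above every WT array (7.14% of members, against 0.433% of all genes). None of the 13 Pex genes was among the 12. For 13 genes that is close to the share of all genes, 3.64% for that direction and 5.64% for both. It is therefore no result about the Pex genes. The members were listed with earlier results of these data known, so these shares are no independent evidence of direction.

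The count rested in part on single arrays and was lower with a tubule marker score in the fit. It was 3 of 42 without THP -/- array 3 (Acox2, Amacr and Acot3) and 7 without THP -/- array 4, and 6 in batch 1 alone. Of all genes, 4.27%, 4.78% and 4.86% had an unadjusted p under 0.05 in these settings, in that order. Adding a thick ascending limb marker score to the fit left 4 members, against 4.47% of all genes. Adding a score of S3 markers less S1 and S2 markers also left 4, against 4.14% of all genes. Whether counts of 3 or 4 exceed these shares was not tested. The thick ascending limb score was 7.35 in THP -/- array 4 and at most 5.94 in the other arrays. Each score also takes up a residual degree of freedom, and the cause of the lower counts was not tested. The number of positive members moved less than the number of calls. It was 30 of 42 with the thick ascending limb score and 33 with the S3 score, against 33 as reported, with medians of 0.10 and 0.15 against 0.17. These counts do not show that the same members stayed positive. The score of S3 less S1 and S2 markers averaged 1.93 ± 0.718 in THP -/- arrays and 1.11 ± 0.659 in WT arrays (SD, n = 5 and 6). S3 markers other than the member Slc27a2 had a positive difference in 9 of 10 genes, with means per array from 7.92 to 8.93 in THP -/- and from 7.43 to 8.35 in WT tubules. S1 and S2 markers had a negative one in 10 of 10, with means from 5.64 to 6.97 in THP -/- and from 6.06 to 7.17 in WT tubules. Within batches, 0 of these 10 were positive in batch 1 and 4 in batch 2, with mean differences of -0.59 and -0.17. For the 10 S3 markers the counts were 9 and 8, with mean differences of 0.50 and 0.35. The part of this shift in the peroxisome result was not tested beyond those fits. Acox2, Amacr and Acot3 kept an unadjusted limma p under 0.05 in each of the 24 other settings, and no member reached an adjusted p below 0.29 in any of them.

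**Figure D1:**
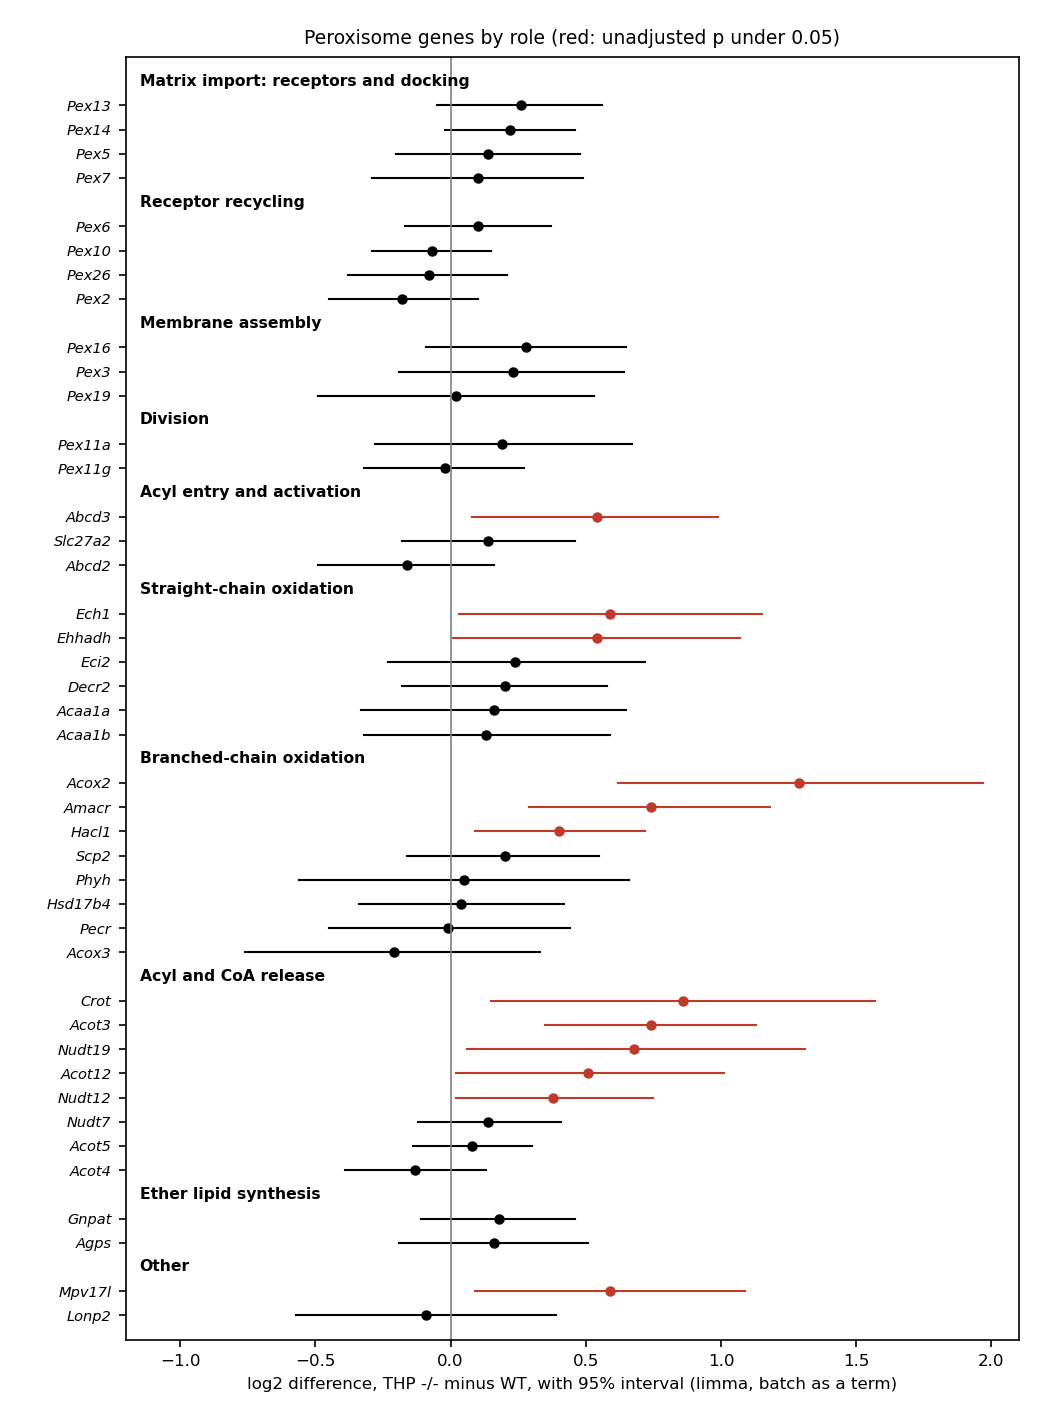
Log2 difference (x axis, THP -/- minus WT, batch as a term) of the 42 measured members, grouped by role, with 95% intervals from limma as lines. Red marks the 12 members with an unadjusted p under 0.05, of which 3 are branched-chain enzymes and 5 release acyl groups or cofactors. None of the 13 Pex genes is red, against a share of 5.64% over all genes. Abcd2 and Acot5 are drawn although below the array median on all 11 arrays.

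Among the Pex genes, those of import and membrane assembly mostly had positive differences and those of receptor recycling mostly negative ones. None of the 13 reached an unadjusted limma p under 0.05, and over all genes 5.64% did. All 4 genes of cargo recognition and docking had positive differences, from 0.10 for Pex7, the receptor for the N-terminal targeting signal, to 0.26 for Pex13, a docking protein. Pex5, the receptor for the C-terminal signal, was at 0.14 ± 0.15 (SE), but its sign turned between batches (0.23 in batch 1 and -0.12 in batch 2). Pex14, the central docking protein, read 5.93, 5.67, 5.87, 5.84 and 5.67 in THP -/- arrays 1 to 5, against a lowest of 5.41, a median of 5.60 and a highest of 5.74 in WT arrays. In Pex14, 3 of 5 THP -/- arrays lay above every WT array. Its difference was 0.22 ± 0.11 (SE), alike within both batches (0.22 and 0.21), with an exact within-batch permutation p of 0.0417, two-sided, and a limma adjusted p of 0.823.

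Receptor recycling had 3 of 4 genes with a negative difference. Pex2, a ubiquitin ligase subunit that marks spent receptors, read 4.31, 4.32, 4.63, 4.55 and 4.24 in THP -/- arrays, against a lowest of 4.38, a median of 4.58 and a highest of 4.85 in WT arrays. Its groups overlapped, and the difference was -0.18 ± 0.12 (SE). Its partner Pex10 was at -0.07, the membrane anchor Pex26 at -0.08 and the receptor-extracting ATPase Pex6 at 0.10. THP -/- arrays were close together for Pex26, from 4.73 to 4.81, and WT arrays ran from 4.51 to 5.26.

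Membrane assembly genes insert peroxisomal membrane proteins. Pex16 read 6.48, 5.84, 6.14, 6.39 and 5.85 in THP -/- arrays, against 5.54, 5.92 and 6.26 as the lowest, median and highest WT values, a difference of 0.28 ± 0.17 (SE). Pex3 was at 0.23 ± 0.19. Pex19, the carrier of membrane proteins, read 6.11, 5.87, 6.38, 6.22 and 6.12 in THP -/- arrays, inside the WT range from 5.41 to 6.66 with a median of 6.21, and its difference was 0.02 with a 95% interval from -0.49 to 0.53. The division factor Pex11a read 6.13, 5.47, 5.93, 5.95 and 5.98 in THP -/- arrays, against 4.99, 5.80 and 6.08 as the lowest, median and highest in WT arrays. Its sign turned between batches (0.30 in batch 1 and -0.12 in batch 2), as it did for Pex11g, another division factor (-0.14 and 0.30).

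Branched-chain enzymes held the member with the largest difference and also members near 0. Acox2, the oxidase for bile acid precursors and branched chains, read 6.37, 6.14, 7.11, 6.89 and 5.68 in THP -/- arrays, against a lowest of 4.29, a median of 5.30 and a highest of 5.58 in WT arrays. The groups did not overlap, with THP -/- array 5 nearest to the WT range. Its difference was 1.29 ± 0.31 (SE), or 2.45-fold, with a 95% interval from 0.62 to 1.97, an exact within-batch permutation p of 0.0119 and a limma adjusted p of 0.543. Amacr, the racemase that turns branched acyl-CoAs into the form the oxidases accept, read 7.74, 7.56, 8.42, 8.52 and 7.97 in THP -/- arrays, against 6.73, 7.32 and 7.54 as the lowest, median and highest in WT arrays. The gap between its groups was narrow, and its difference of 0.74 ± 0.20 (SE) was alike in both batches (0.75 and 0.70). The exact permutation p of Amacr was 0.00595, the smallest that the within-batch arrangements allow, and its limma adjusted p was 0.640.

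Hacl1, the lyase of alpha-oxidation, read 4.74, 4.74, 5.33, 4.98 and 5.02 in THP -/- arrays, against 4.31, 4.53 and 4.75 as the lowest, median and highest in WT arrays. Only its 2 lowest THP -/- arrays fell within the WT range, and its difference was 0.40 ± 0.14 (SE), or 0.26 without THP -/- array 3. Phyh, the hydroxylase that opens alpha-oxidation, was at 0.05 ± 0.28, and the difference between these genes was not tested. Scp2, which encodes a branched-chain thiolase and a lipid carrier, was at 0.20, and Hsd17b4, the bifunctional enzyme of this route, at 0.04. Acox3, another branched-chain oxidase, was at -0.21 ± 0.25 (SE), with THP -/- values from 6.46 to 7.38 and WT values from 6.6 to 7.96. Pecr, a reductase in the making of phytanic acid, read 7.53, 7.13, 8.01, 8.11 and 7.92 in THP -/- arrays, against 7.25, 7.80 and 8.02 as the lowest, median and highest in WT arrays, a difference of -0.01 with an interval from -0.45 to 0.44.

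**Figure D2:**
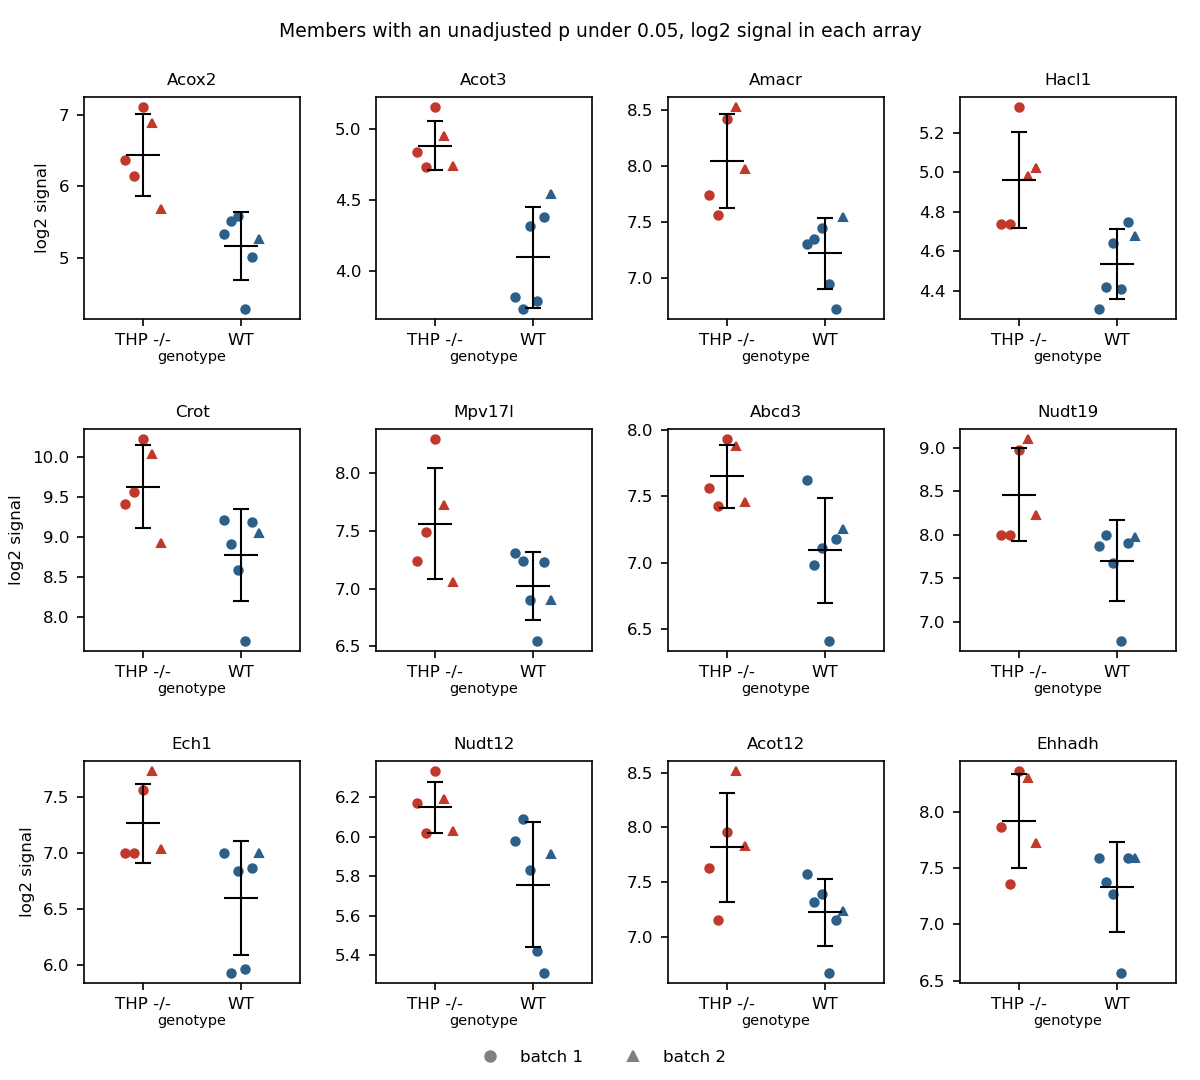
Log2 signal (y axis) of the 12 members with an unadjusted p under 0.05 in each THP -/- array (left, red) and WT array (right, blue), with circles for batch 1, triangles for batch 2, and bars for mean and SD. Acox2, Acot3 and Amacr show no overlap between genotypes, and WT array 4 is the lowest point in 7 of the 12 panels.

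Straight-chain enzymes all had positive differences, from 0.13 to 0.59, and 2 of 6 were among the 12 (33.3%, against 3.64% of all genes higher at that p). Ehhadh, the bifunctional enzyme of this route, read 7.87, 7.36, 8.36, 8.30 and 7.72 in THP -/- arrays, against 6.57, 7.48 and 7.59 as the lowest, median and highest in WT arrays. All THP -/- arrays but array 2 lay above every WT array, and its difference was 0.54 ± 0.24 (SE), or 0.36 without THP -/- array 3, with an exact permutation p of 0.0893 over all arrays. Ech1, an isomerase for unsaturated chains, read 7.0, 7.0, 7.56, 7.73 and 7.04 in THP -/- arrays, against 5.93, 6.86 and 7.0 as the lowest, median and highest in WT arrays. The WT values of Ech1 were spread widely, with arrays 2 and 4 at 5.93 and 5.96, and its difference was 0.59 ± 0.25. The other 2 genes for unsaturated chains were Eci2, an isomerase, at 0.24, and Decr2, a reductase, at 0.20. The thiolases Acaa1a and Acaa1b were at 0.16 ± 0.22 and 0.13 ± 0.21, both with THP -/- arrays inside the WT range, and as near-identical copies they can share probe signal.

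Entry of acyl chains was measured by 3 genes with unlike values. Abcd3, the transporter for branched chains and bile acid precursors, read 7.56, 7.43, 7.93, 7.88 and 7.46 in THP -/- arrays, against 6.41, 7.14 and 7.62 as the lowest, median and highest in WT arrays. Of the THP -/- arrays 2 lay above the WT range, and its difference was 0.54 ± 0.21 (SE). Abcd2, a transporter for very long chains, was below the array median on all 11 arrays and is not shown to be above background. Slc27a2, the very long chain acyl-CoA synthetase of the proximal tubule, was at 0.14 ± 0.14, with values from 11.50 to 11.78 in THP -/- arrays and from 11.06 to 11.85 in WT arrays.

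Enzymes that release acyl groups or trim cofactors had the most members among the 12, with 5 of 8 (62.5%, against 3.64% of all genes higher at that p). By exact within-batch permutation, p was 0.0119 for Acot3, 0.0417 for Crot, 0.0476 for Nudt12, 0.0536 for Nudt19 and 0.0893 for Acot12. Acot3, a thioesterase that frees fatty acids from coenzyme A inside mouse peroxisomes, read 4.84, 4.73, 5.15, 4.95 and 4.74 in THP -/- arrays, against 3.74, 4.07 and 4.54 as the lowest, median and highest in WT arrays. Its groups did not overlap, but 3 of 6 WT arrays were below their array median and no background was measured, so the size of the difference is uncertain. The log2 difference of Acot3 was 0.74 ± 0.18 (SE), at 0.90 in batch 1 and 0.31 in batch 2, with an exact permutation p of 0.0119 and a limma adjusted p of 0.543. Acot3 stands in a row of like genes on chromosome 12 (Acot2, Acot1, Acot4, Acot3, Acot5, Acot6 in the RefSeq annotation), which can share probe signal. Of its neighbours among the members, Acot4 was at -0.13 ± 0.12, and Acot5 was below the array median on all 11 arrays and is not shown to be above background. Acot12, a thioesterase for acetyl-CoA that works in the cytosol, read 7.63, 7.15, 7.96, 8.51 and 7.83 in THP -/- arrays, against 6.67, 7.28 and 7.57 as the lowest, median and highest in WT arrays. Array 2 was the single THP -/- array inside that range, and the difference was 0.51 ± 0.22, at 0.36 in batch 1 and 0.94 in batch 2.

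Crot, which attaches shortened chains to carnitine for export, read 9.41, 9.56, 10.22, 10.04 and 8.93 in THP -/- arrays, against 7.71, 8.98 and 9.21 as the lowest, median and highest in WT arrays. THP -/- array 5 alone fell within the WT range, and the difference was 0.86 ± 0.32 (SE), or 1.81-fold. Nudt19, a hydrolase of coenzyme A prominent in mouse kidney, read 8.0, 8.0, 8.98, 9.10 and 8.23 in THP -/- arrays, against 6.78, 7.89 and 8.0 as the lowest, median and highest in WT arrays. Its difference of 0.68 ± 0.28 was alike in both batches (0.68 and 0.69), and arrays 3 and 4 were its highest. Nudt12, which splits NADH, read 6.17, 6.02, 6.33, 6.19 and 6.03 in THP -/- arrays, against 5.31, 5.87 and 6.09 as the lowest, median and highest in WT arrays. It differed by 0.38 ± 0.17, with the WT values spread more widely than the THP -/- values (SD 0.317 and 0.128). Nudt7, another hydrolase of coenzyme A, was at 0.14 ± 0.12.

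The ether lipid enzymes, which begin plasmalogen synthesis, had small positive differences of 0.18 ± 0.13 for Gnpat and 0.16 ± 0.16 for Agps (SE). Gnpat read 6.36, 6.11, 6.18, 6.67 and 6.17 in THP -/- arrays, against 5.87, 6.13 and 6.27 as the lowest, median and highest in WT arrays, so 2 of 5 were above the WT range. Mpv17l, a peroxisomal membrane protein tied to oxidant handling in kidney, read 7.24, 7.49, 8.29, 7.72 and 7.06 in THP -/- arrays, against 6.55, 7.07 and 7.31 as the lowest, median and highest in WT arrays. Its difference was 0.59 ± 0.23, with 3 THP -/- arrays above every WT array, and it was 0.37 without THP -/- array 3, with an unadjusted limma p of 0.0978. The matrix protease Lonp2 was at -0.09 ± 0.22.

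The oxidation groups had larger mean differences than the Pex group, and the arrays of the genotypes overlapped for each of the 3. The mean over the 13 Pex genes was 5.39 ± 0.108 in THP -/- arrays and 5.30 ± 0.0987 in WT arrays (SD, n = 5 and 6), a batch-adjusted difference of 0.09. Straight-chain genes averaged 6.58 ± 0.223 in THP -/- arrays and 6.23 ± 0.235 in WT arrays, a difference of 0.31. Branched-chain genes averaged 6.63 ± 0.337 in THP -/- arrays and 6.26 ± 0.246 in WT arrays, also a difference of 0.31. Medians over genes were 0.10 for Pex, 0.22 for straight-chain and 0.12 for branched-chain genes, so the branched-chain median lay close to the Pex median. The branched-chain mean includes Acox2 at 1.29, and 2 of the 8 branched-chain genes had a negative difference. Within an array, straight-chain minus Pex genes ran from 0.95 to 1.36 in THP -/- and from 0.73 to 1.13 in WT tubules, and branched-chain minus Pex genes from 0.94 to 1.50 in THP -/- and from 0.59 to 1.16 in WT tubules. Both of these differences averaged 0.22 higher in THP -/- tubules, and branched-chain minus straight-chain genes differed by 0.00. These means are descriptions of listed genes and carry no p.

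**Figure D3:**
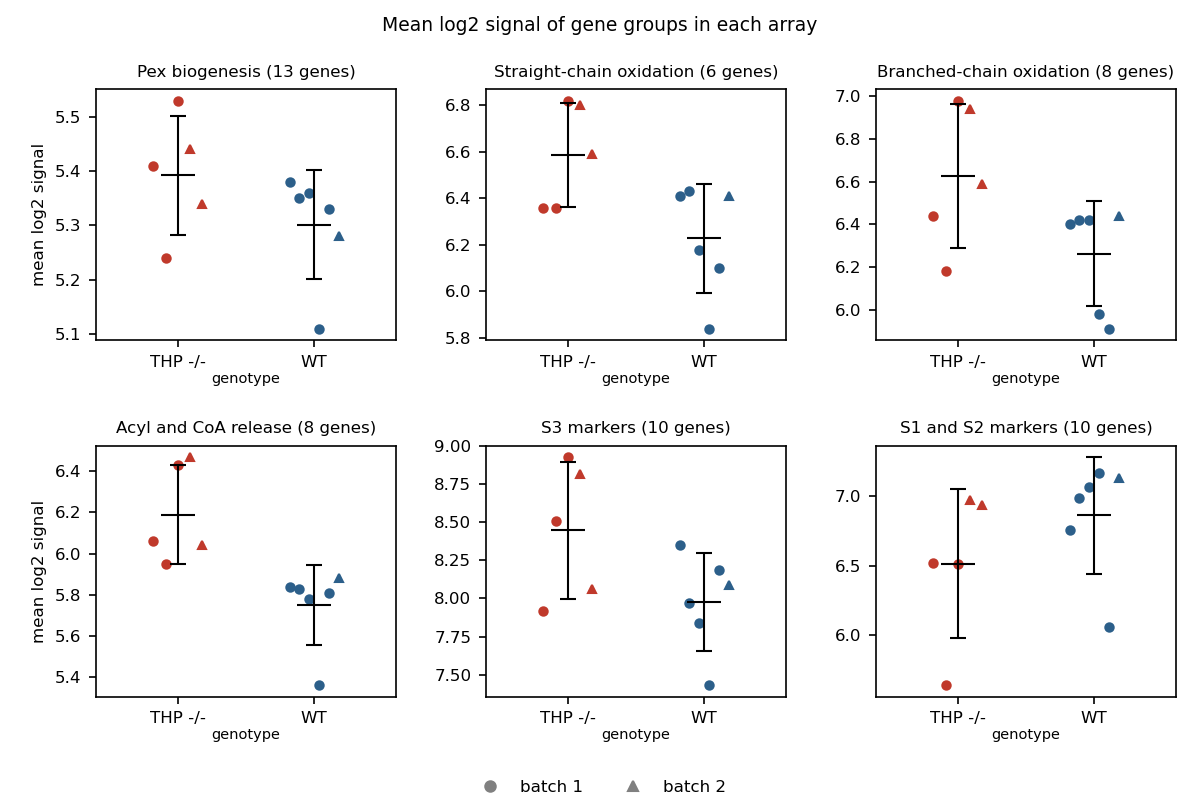
Mean log2 signal (y axis) of 4 groups of members and of S3 and of S1 and S2 markers in each THP -/- array (left, red) and WT array (right, blue), with circles for batch 1, triangles for batch 2, and bars for mean and SD. The Pex means overlap from 5.24 to 5.38, the acyl and CoA release means do not overlap, and WT array 4 is lowest in 4 of the 6 panels and highest for S1 and S2 markers.

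Within a genotype the same arrays held many of the highest or lowest values. Averaged over the 42, THP -/- arrays read 6.14, 5.97, 6.44, 6.43 and 6.17, and WT arrays 1 to 6 read 6.10, 6.06, 6.02, 5.67, 5.89 and 6.05. THP -/- arrays 3 and 4 held the highest value of 13 and 11 members (31.0% and 26.2%, against 9.74% and 13.4% of all genes). WT array 4 held the lowest value of 19 members (45.2%, against 14.8% of all genes). The same arrays stood at the ends for S3 markers, with means of 8.93 and 8.82 in THP -/- arrays 3 and 4 and of 7.43 in WT array 4, members left out. THP -/- array 4 also had the highest thick ascending limb score, 7.35, against 5.48 to 5.94 in the other THP -/- arrays and 5.17 to 5.86 in WT arrays. Its mean of distal and collecting duct markers was the highest as well, 6.33, against 4.29 to 5.10 in the other THP -/- arrays and 4.45 to 5.15 in WT arrays. With both arrays numbered 4 left out, a choice made after seeing the data, 5 of 42 members had an unadjusted limma p under 0.05: Acox2, Amacr, Hacl1, Crot and Acot3. Of all genes, 4.15% did in that setting.

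**Figure D4:**
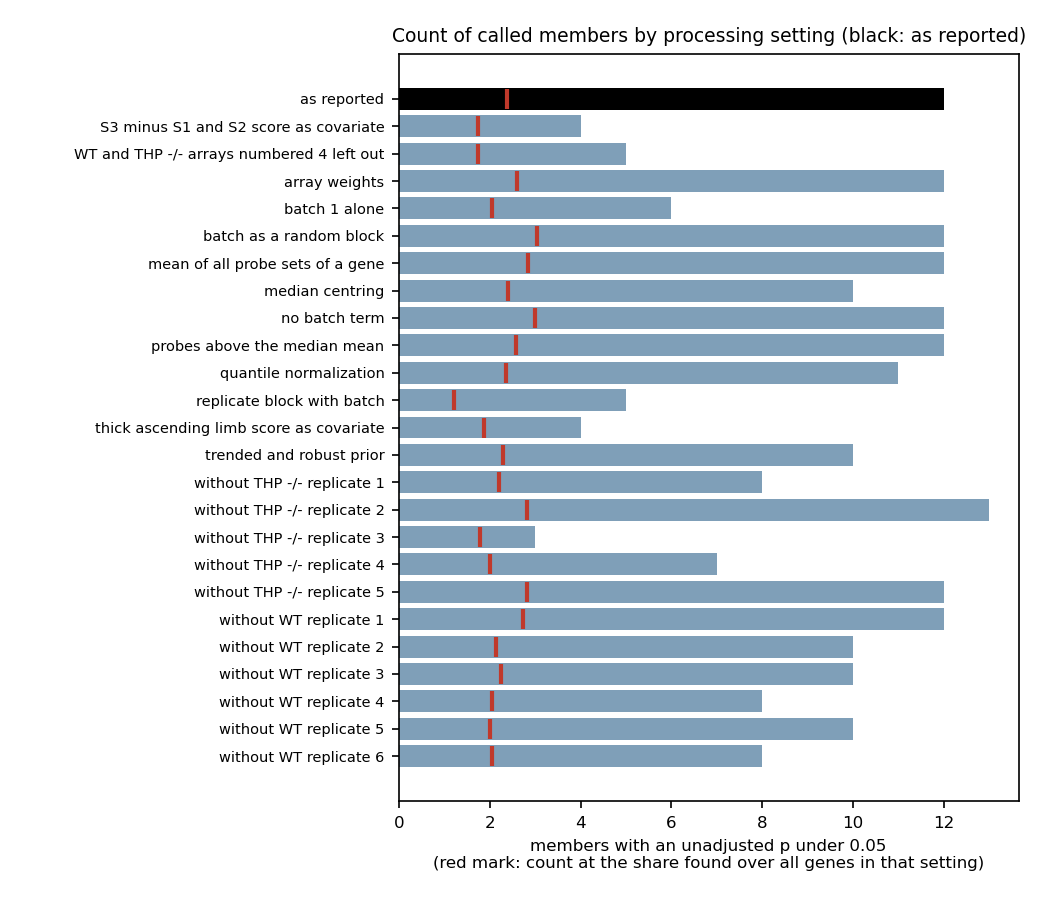
Number of members with an unadjusted p under 0.05 (x axis) under the reported setting (black) and 24 others (blue), with a red mark at the count that the share of all genes in that setting would give. The count runs from 3 to 13 and lies above the mark in every setting shown.

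Other peroxisomal genes outside the list had differences in both directions. Of 32 measured, 18 had a positive difference (56.2%, against 53.4% of all genes) with a median of 0.06, and 9 had an unadjusted limma p under 0.05, with 6 higher and 3 lower in THP -/- tubules (28.1% in both directions, against 5.64% of all genes, of which 3.64% were higher and 2% lower). Hao2, a peroxide-forming hydroxy acid oxidase of the kidney, read 6.46, 7.41, 7.47, 7.75 and 7.85 in THP -/- arrays, against 7.60, 8.48 and 8.66 as the lowest, median and highest in WT arrays. Its difference was -1.05 ± 0.25 (SE), with an exact permutation p of 0.00595, the smallest possible, and a limma adjusted p of 0.543. Acnat1 and Acnat2, which join fatty acids to amino acids, were at -0.67 ± 0.20 and -1.10 ± 0.33, and as close relatives they can share probe signal.

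On the higher side, Ephx2, the soluble epoxide hydrolase, read 8.79, 8.11, 8.87, 8.89 and 8.67 in THP -/- arrays, against 7.13, 7.88 and 8.29 as the lowest, median and highest in WT arrays. It differed by 0.83 ± 0.25 (SE), with THP -/- array 2 alone inside the WT range. Mlycd, which degrades malonyl-CoA, was at 0.43 ± 0.18, and Dao, the D-amino acid oxidase, at 0.41 ± 0.16. Cat, the catalase that removes peroxide inside the organelle, was at 0.12 ± 0.17. The limma adjusted p of the 9 genes was 0.543 or more.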

How the data were processed

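Per the labels' protocols, 2 ng of RNA per sample was labelled by the WT Pico method. The deposited values are log2 signals made by the authors with Partek 6.6 and RMA, per the submitters' processing notes; RMA draws array distributions together and can shrink shared changes. Whether batches were corrected before deposit is not stated in what was used here.

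Of 41345 probe sets 23521 carried 1 symbol in the platform annotation, 1814 several and 16010 none. Genotype (THP -/- minus WT) was tested over all probe sets with limma 3.58.1 in R 4.3.3 (batch as a fixed term, 8 residual degrees of freedom, Benjamini-Hochberg over all probe sets, no filter). In simulated data for this comparison on 41345 probe sets, 60 of 100 changes of 1 and 83 of 100 changes of 2 on the log2 scale were recovered, with 5 false calls. The simulated noise was normal and independent between probe sets, whereas genes in the real arrays deviated together, so these shares are not the power in the real data. Single genes were also tested by permuting genotype within batches. S3, S1 and S2, and thick ascending limb scores are mean log2 values of marker genes without members or Umod.

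Members, roles, lists and other settings were chosen with earlier results of these data known. Values in every array are given for members with an unadjusted p under 0.05, the smallest p in each role, and the highest signal in the Pex, straight-chain and branched-chain groups; of the other lists, at most 6 genes by smallest p. Cat and, of the PPAR-alpha list, Pdk4, Angptl4, Ppara and Rxra were named after their values were seen. Figures used matplotlib 3.10.9 and Python 3.11.15.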

Additional observations from a re-analysis of the deposited data

Results flagged for a closer look

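A sample far from the others of its genotype was found for 7 of the 90 sets of arrays checked (45 values in 2 genotypes). The critical value is set so that chance flags about 1 in 20 independent sets, but these sets share arrays, so no expected count follows. WT array 4 was the lowest of 6 for Pex6 (5.54, next 5.90), Ehhadh (6.57, next 7.27), Nudt19 (6.78, next 7.67) and the mean of the 13 Pex genes (5.11, next 5.28). That array also had the lowest mean of S3 markers, 7.43. THP -/- array 2 was the lowest of 5 for Acox3 (6.46, next 7.16) and Agps (6.47, next 7.04), and THP -/- array 3 was the highest of 5 for Pex13 (5.19, next 4.77).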

How the results depend on the processing

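The count of members with an unadjusted p under 0.05 was 12 as reported (28.6%, against 5.64% of all genes). It was 4 with the score of S3 less S1 and S2 markers as a covariate (Pex14, Acox2, Amacr and Acot3), 4 with the thick ascending limb score (Acox2, Amacr, Hacl1 and Acot3), 6 in batch 1 alone and 5 with both arrays numbered 4 left out, and it ran from 3 to 13 over the arrays left out in turn (3 without THP -/- array 3 and 7 without THP -/- array 4). The share of all genes at that p was 4.14% with the S3 score and 4.47% with the thick ascending limb score. It was 4.86% in batch 1 alone and 4.15% with both arrays numbered 4 left out. Without THP -/- array 3 it was 4.27%, and without THP -/- array 4 it was 4.78%. Replicate numbers are shared between genotypes in the labels, but same-numbered arrays did not deviate together (r from -0.125 to 0.096). With the replicate block the count was 5, with Acox2, Amacr, Hacl1 and Acot3 higher and Acox3 lower, and 0 probe sets passed. Of all genes, 2.88% reached an unadjusted p under 0.05 with that block. The count of probe sets past an adjusted p of 0.05 was 0 as reported, 3 in batch 1 alone, 1 with probe sets averaged per gene, and 0 to 11 over the arrays left out (11 without THP -/- array 5, 3 without WT array 6, 2 without THP -/- array 3 and 1 without WT array 1). No member was among them. Without WT array 6 the difference rests on batch 1 alone. The mean differences of the Pex, straight-chain and branched-chain genes stayed positive in all settings, from 0.03 to 0.14, from 0.17 to 0.36 and from 0.12 to 0.43, including Hsd17b4 counted as straight-chain. The sign of all 12 members was kept in every setting, and 25 of 42 members kept theirs. The cause of these changes was not tested. Probe signal over background was not used, so dim genes such as Abcd2 and Acot5 have no measured floor.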

Other observations

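Genes known as targets of the fatty acid receptor PPAR-alpha outside the peroxisome list were mostly higher in THP -/- tubules, none past an adjusted p of 0.05. Of 18 measured targets, 15 had a positive difference (83.3%, against 53.4% of all genes), with a median of 0.18, and 4 had an unadjusted limma p under 0.05, all higher (22.2%, against 3.64% of all genes). Within batches, 16 of the 18 were positive in batch 1 and 11 in batch 2. Plin2, which coats lipid droplets, read 4.62, 4.90, 4.64, 5.19 and 5.15 in THP -/- arrays, against 4.14, 4.30 and 4.73 as the lowest, median and highest in WT arrays. Its difference was 0.43 ± 0.11 (SE), alike in both batches (0.42 and 0.44), with an exact permutation p of 0.00595, the smallest possible, and a limma adjusted p of 0.595. The mitochondrial genes Cpt2, Acadl and Slc25a20 were at 0.49, 0.50 and 0.39. The receptor gene Ppara itself was at 0.01 ± 0.13 (SE), and its partner Rxra at 0.06 ± 0.17. Among other targets, Pdk4 was at -0.20 ± 0.16 and Angptl4 at 0.07 ± 0.15. Xist was below the array median on all 11 arrays, and the Y-linked genes differed among themselves: Eif2s3y was above it on all 11, Kdm5d on 2 and Uty on 0, so the sex of the mice is not settled here.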
